A study of Homo sapiens with 26 samples.

Results

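The receptors and ligands of the EGFR family were followed through 26 single cell-derived cell lines (SCDCLs) of pancreatic ductal adenocarcinoma. The members were the receptor genes EGFR, ERBB2, ERBB3 and ERBB4 and the ligand genes AREG, EREG, TGFA, HBEGF, BTC and NRG1. They were taken by Ensembl identifier from a table of 41078 genes, which gave 10 members. Each SCDCL was grown from a single cell isolated by limited dilution of BxPC3, a line described as classical, or Panc-1, a line described as basal-like. Each SCDCL gave 1 mRNA library, so every value describes 1 clone and no clone has a replicate. By label, 12 libraries (numbers 15 to 26) are from BxPC3 and 14 (numbers 1 to 14) from Panc1. The labels name gemcitabine as the treatment of all 26 libraries, although the methods describe that drug only for separate viability assays. The response of each clone to gemcitabine was not analysed here.

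The libraries were also divided by SMAD4, a mediator of TGF-beta signaling, because its level did not follow the labels. TPM is the abundance of a transcript relative to its length and to the library. SMAD4 was under 1 TPM in 12 libraries, where it reached 0.044 TPM at most. It was between 28.1 and 52.2 TPM in the other 14. BxPC3 is known to lack SMAD4, whereas Panc-1 keeps it. Of the 12 libraries with SMAD4 under 1 TPM, 7 are labelled Panc1 (numbers 1 to 7) and 5 are labelled BxPC3 (numbers 16, 21, 24, 25 and 26). Of the 14 with more, 7 carry each label. The SMAD4 groups have the same sizes, 12 and 14, as the sets of libraries labelled BxPC3 and Panc1. Whether these groups are the clones of the parental lines was not tested, and SMAD4 and line of origin cannot be told apart here. A library is therefore named below by its number and its SMAD4 group, and the line it came from is given only as its label. Since this division was read from the same libraries, differences between the SMAD4 groups are described without a test.

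Totals ranged from 27035724 to 34945608 estimated counts per library, and the ranges of both SMAD4 groups overlapped. CDKN2A, a cell cycle inhibitor deleted in both lines, was listed at 0 in all 26. The SMAD4 groups also differed in other genes of cell identity. CDH1, the adhesion protein of epithelial junctions, had a median of 136 TPM with SMAD4 under 1 TPM and 2.62 TPM in the other libraries. VIM, an intermediate filament of mesenchymal cells, had medians of 11 and 3720 TPM. Of 5 epithelial markers, 3 were higher with SMAD4 under 1 TPM without overlap (CDH1, EPCAM and KRT7), while KRT19 overlapped and CLDN4 overlapped with the lower median (74.2 against 161 TPM). The 5 summed to 3350 to 6810 TPM against 792 to 2220 TPM. Of 5 mesenchymal markers, 3 were lower (VIM, ZEB1 and SPARC) and FN1 was higher, with summed levels of 12.5 to 129 and 3130 to 4570 TPM. The leukocyte markers PTPRC, CD3E and LYZ summed to 0.931 TPM at most in any library. LUM, a fibroblast marker, did not pass 0.243 TPM, and the 4 fibroblast markers together reached 39.5 TPM, nearly all of it COL1A1. The 3 endothelial markers summed to 3.16 to 17 TPM with SMAD4 under 1 TPM and 0.321 to 5.39 TPM otherwise. VWF was under 0.5 TPM throughout, and CDH5 was 1.04 to 13.6 TPM in the former group. The part of cell identity in the results on the family was not tested.

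Receptors of this family are tyrosine kinases that pair when a ligand binds. EGFR is bound by amphiregulin (AREG), epiregulin (EREG), transforming growth factor alpha (TGFA), heparin-binding EGF-like growth factor (HBEGF) and betacellulin (BTC), some of which also bind ERBB4. Neuregulin 1 (NRG1) binds ERBB3 and ERBB4. ERBB2 has no known ligand of its own and pairs with the other receptors, and ERBB3 has little kinase activity and signals mainly through its partner. The ligands are made as membrane-bound precursors that proteases release. Pairs of these receptors feed the RAS and PI3K pathways, and EGFR has been a drug target in pancreatic cancer.

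Among the members, the genes of 3 EGFR ligands lie on one stretch of chromosome 4 (GRCh38, GENCODE 44). EREG occupies positions 74365145 to 74388749 on the plus strand and AREG 74445136 to 74455005 on the same strand, with 56.4 kb between them. BTC lies 290 kb beyond AREG, at 74744759 to 74794523 on the minus strand. AREG and EREG had the largest ratios of medians between the SMAD4 groups among the ligands with a median above 0 in both, so the 250 bases before the RefSeq start of each are shown (GRCh38.p14, plus strand, 5′ to 3′, AREG at chr4:74444886-74445135 and EREG at chr4:74364895-74365144). Capitals mark letters that match the motifs searched.
AREG: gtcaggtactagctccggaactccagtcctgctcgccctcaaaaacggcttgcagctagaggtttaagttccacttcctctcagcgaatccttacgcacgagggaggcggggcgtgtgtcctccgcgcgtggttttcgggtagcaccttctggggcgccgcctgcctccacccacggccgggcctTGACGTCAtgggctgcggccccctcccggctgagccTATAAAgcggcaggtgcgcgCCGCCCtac
EREG: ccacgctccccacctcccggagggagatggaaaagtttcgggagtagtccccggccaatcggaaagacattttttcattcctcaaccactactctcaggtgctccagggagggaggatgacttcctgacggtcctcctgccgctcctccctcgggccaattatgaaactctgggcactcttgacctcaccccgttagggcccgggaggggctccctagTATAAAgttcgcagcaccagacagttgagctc
The motifs were searched on both strands, without overlap among the matches. The AREG window holds the full cAMP response element TGACGTCA, beginning 65 bases before the start, a TATA box (TATAAA) at 29 bases and, on the minus strand, a GC box (GGGCGG, here read as CCGCCC) at 9 bases. The EREG window holds a TATA box at 32 bases and none of the other motifs. Neither window holds the AP-1 site TGACTCA. Among 35116 RefSeq promoter windows of this length, 1.65% hold TGACGTCA, 10.7% TATAAA, 42.6% GGGCGG and 4.2% TGACTCA. These are matches of letters, and no binding was measured. Of the 10 members, 8 have an entry in the promoter table. NRG1 and ERBB3 do not.

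Among the receptors, EGFR was the most abundant in TPM in every library, and ERBB2 and ERBB3 separated the SMAD4 groups completely. EGFR was 73.4 to 117 TPM (median 96.0) in the 12 libraries with SMAD4 under 1 TPM and 48.7 to 117 TPM (median 77.8) in the other 14. Both groups held libraries near 117 TPM, and mean log2(TPM + 1) differed by 0.31 (SE 0.112). In these bulk libraries, fewer cells with a transcript and less of it per cell cannot be told apart.

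ERBB2, the receptor without a ligand, was 56.6 to 84.4 TPM (median 67.6) with SMAD4 under 1 TPM. In the other libraries it was 10.6 to 40.6 TPM (median 22.8). No library of either group reached the range of the other, and mean log2(TPM + 1) was higher by 1.56 (SE 0.162) with SMAD4 under 1 TPM. ERBB3, the neuregulin receptor, was 9.14 to 38.5 TPM (median 23.8) against 0.929 to 8.29 TPM (median 2.67). Its difference was 2.73 (SE 0.247) on the same scale, and the groups came close only in library 6 (9.14 TPM) and library 17 (8.29 TPM).

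ERBB4, the other neuregulin receptor, was near the floor in nearly all libraries. Its median was 0.17 TPM with SMAD4 under 1 TPM, equal to 23.7 estimated counts, and 0.0182 TPM in the other group, equal to 2.4 estimated counts. Library 4 stood out at 1.72 TPM (229 estimated counts) and library 15 at 0.381 TPM (48.9 estimated counts). The groups overlapped, and no fold is given since the lower median is below 3 counts.

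All 5 EGFR ligands were far more abundant in the libraries with SMAD4 under 1 TPM, and 4 of them without overlap. AREG was 88.4 to 795 TPM (median 221) in the 12 libraries and 0 to 28.8 TPM (median 0.391) in the other 14. The ratio of its medians was 565, and its difference of mean log2(TPM + 1) was 7.0 (SE 0.415), which ranked 34 among 14763 genes with a mean of at least 1 TPM. Its lower median equals 6.92 estimated counts, and its difference depends on the pseudocount (8.62 with 0.1 and 5.23 with 5). The upper end of the lower group is a single library, number 18 (28.8 TPM). The next was library 22 at 1.35 TPM.

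TGFA, which like AREG binds EGFR only, was 47.9 to 156 TPM (median 90.7) against 0.195 to 3.17 TPM (median 0.751). Its groups lay farther apart than their spread, with a difference of 5.63 (SE 0.197) and a ratio of medians of 121. This difference was 6.78 with a pseudocount of 0.1 and 3.99 with 5. HBEGF, which also binds ERBB4, was 23.7 to 262 TPM (median 75) against 1.65 to 15.1 TPM (median 3.99), a difference of 3.99 (SE 0.343). BTC was 6.66 to 22 TPM (median 12.1) with SMAD4 under 1 TPM. In the other group BTC was listed at 0 in 10 of 14 libraries and was highest in library 18, at 0.32 TPM (9.09 estimated counts). Its difference was 3.63 (SE 0.159), which depends on the pseudocount (6.59 with 0.1 and 1.75 with 5), and no fold is given against a median of 0.

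EREG, a ligand of EGFR and ERBB4, was 44.9 to 291 TPM (median 134) with SMAD4 under 1 TPM. In the other group it was 0.0177 to 68.5 TPM (median 0.517). The difference of mean log2(TPM + 1) was 5.63 (SE 0.494), and the ratio of medians was 259. This difference was 6.96 with a pseudocount of 0.1 and 4.05 with 5. Library 18, at 68.5 TPM, lay above 3 of the 12 libraries of the other group, and the remaining 13 lay below all of them, the next being library 22 at 8.5 TPM.

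NRG1, the ligand of ERBB3, had the smallest difference between the SMAD4 groups among the 6 ligands, and its ranges overlapped. It was 53.0 to 143 TPM (median 76.1) with SMAD4 under 1 TPM and 22 to 68.3 TPM (median 36.8) otherwise. The ratio of medians was 2.07 and the difference 1.13 (SE 0.167), and 9 of the 12 libraries were above every library of the other group.

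**Figure D1:**
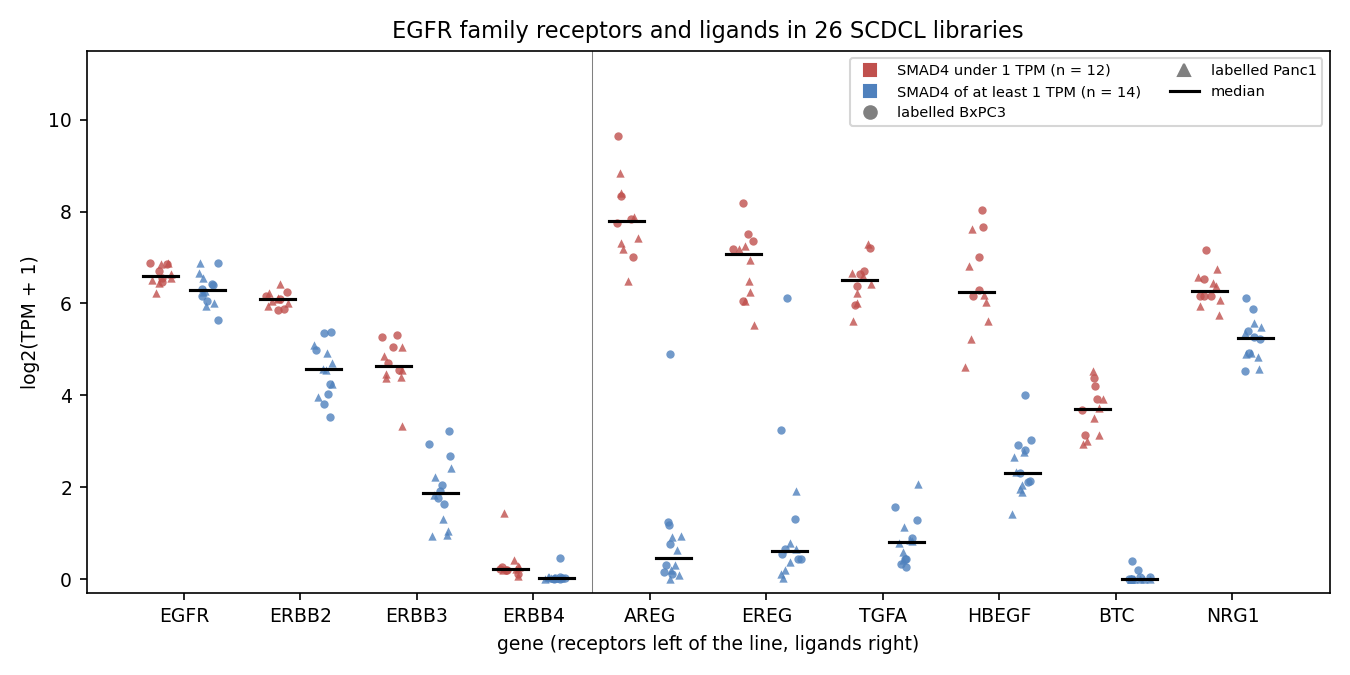
Level of each member as log2(TPM + 1) in 26 libraries, 12 with SMAD4 under 1 TPM (red) and 14 with more (blue). Each point is 1 library, circles are labelled BxPC3 and triangles Panc1, and black bars are medians. The red and blue points are apart for ERBB2, ERBB3, AREG, TGFA, HBEGF and BTC, and 1 blue point, library 18, rises into the red range for EREG.

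Of the 10 members, 6 did not overlap between the SMAD4 groups, all of them higher with SMAD4 under 1 TPM (ERBB2, ERBB3, AREG, TGFA, HBEGF and BTC). Of 14763 genes with a mean of at least 1 TPM, 14.5% were higher without overlap in those libraries, 15.8% were lower and 30.3% were apart in either direction. ERBB4 was the member under that mean. The median difference was 3.18 on the log2 scale for the 10 members and -0.0297 for all genes tested. Without library 18 the count was 7, since EREG no longer overlapped, and without library 15 it was 7, since ERBB4 no longer did.

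The mixture of receptors and ligands differed as well. The receptors summed to 156 to 229 TPM with SMAD4 under 1 TPM and to 66.1 to 164 TPM in the other libraries, so these sums overlapped. EGFR made up 42.2 to 56.6% of that sum in the former (median 51.6%) and 63.1 to 84.3% in the latter (median 75.8%), with no overlap. ERBB2 accounted for 29.8 to 39.9% against 12.7 to 33.2%, and ERBB3 for 5.85 to 18.6% against 0.656 to 6.29%. Both of these shares overlapped between the groups.

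The EGFR ligands AREG, EREG, TGFA, HBEGF and BTC summed to 212 to 1510 TPM (median 572) with SMAD4 under 1 TPM. In the other libraries they summed to 2.4 to 113 TPM (median 6.3), and the highest of these was library 18. AREG was the most abundant of the 6 ligand genes in 12 of 12 libraries with SMAD4 under 1 TPM. In the other group NRG1 was the most abundant in 13 of 14, and EREG in library 18. NRG1 accordingly made up 5.72 to 28.9% of the ligand TPM in one group and 33.9 to 94.2% in the other. The median share was 12.1% in the former and 82.9% in the latter, where the smallest share was that of library 18. These shares are of the 6 ligand members and leave out NRG2, described below.

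**Figure D2:**
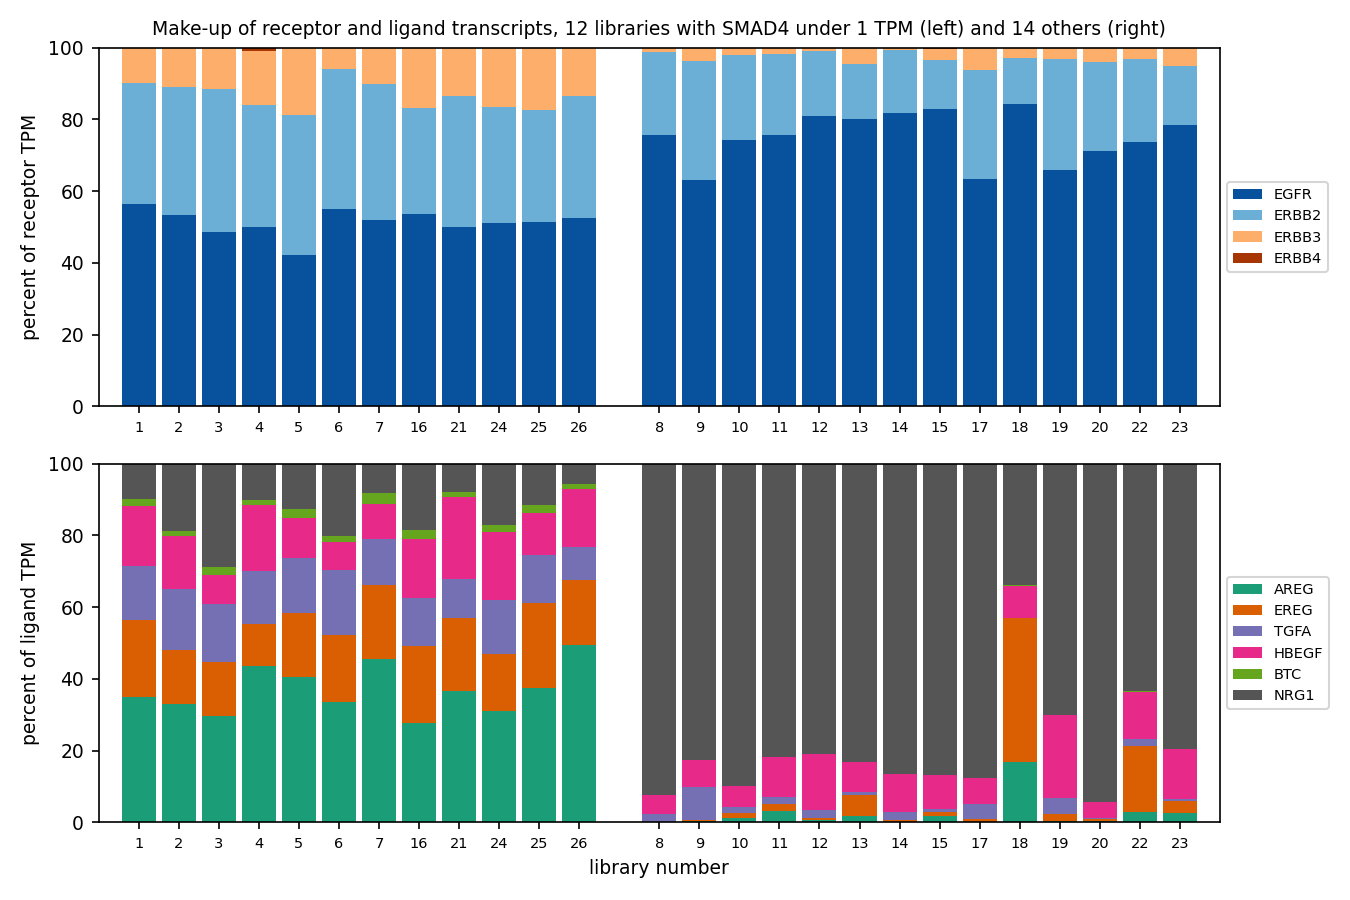
Share of each receptor in the summed receptor TPM (top) and of each ligand in the summed ligand TPM (bottom), in percent, for each library by number, with the 12 libraries of SMAD4 under 1 TPM on the left and the other 14 on the right. EGFR takes 42.2 to 56.6% of receptor TPM on the left and 63.1 to 84.3% on the right, and NRG1 takes up to 28.9% of ligand TPM on the left and at least 33.9% on the right, where library 18 holds the smallest NRG1 share.

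Libraries of 1 SMAD4 group also differed among themselves. With 1 library per clone, differences between clones cannot be told apart from those of culture or library preparation. Variation is given as the SD of log2(TPM + 1) between libraries. Over all genes with a mean of at least 1 TPM in the group, the median SD was 0.30 with SMAD4 under 1 TPM (14375 genes) and 0.29 in the other group (13826 genes), with 90th percentiles of 0.60 and 0.62. Part of any SD is error of quantification, which was measured from repeat estimates that kallisto makes by drawing reads of a library again (the first 5 of each library). For the members the SD over these estimates was between 0.0126 and 0.116, well below the SD between libraries for all but the low values of ERBB4 and BTC.

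In the 12 libraries with SMAD4 under 1 TPM, the abundant receptors were steady and the ligands were not. EGFR had an SD of 0.21 and ERBB2 of 0.16, both under the median of all genes. ERBB3 had an SD of 0.53, which was 0.34 without library 6. The ligand HBEGF varied most, with an SD of 1.03 and an 11-fold span from library 3 (23.7 TPM) to library 26 (262 TPM), and 97.7% of genes had a smaller SD. AREG (SD 0.86) and EREG (SD 0.76) had the same extremes, library 3 and library 26. TGFA (0.49), BTC (0.54) and NRG1 (0.39) lay between the median and the 90th percentile of all genes. ERBB4 had an SD of 0.36, or 0.09 without library 4.

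In the 14 libraries with SMAD4 of at least 1 TPM, EREG and AREG had the largest SDs among the members, at 1.65 and 1.24. Both owe much to library 18, without which they were 0.89 and 0.44. ERBB3 had an SD of 0.72, HBEGF of 0.64 (0.48 without library 18), ERBB2 of 0.58, TGFA of 0.52, NRG1 of 0.47 and EGFR of 0.35. Each of these was above the median of all genes. ERBB4 and BTC, with SDs of 0.12, were near the floor. Their SDs fell to 0.01 without library 15 for ERBB4 and to 0.06 without library 18 for BTC.

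**Figure D3:**
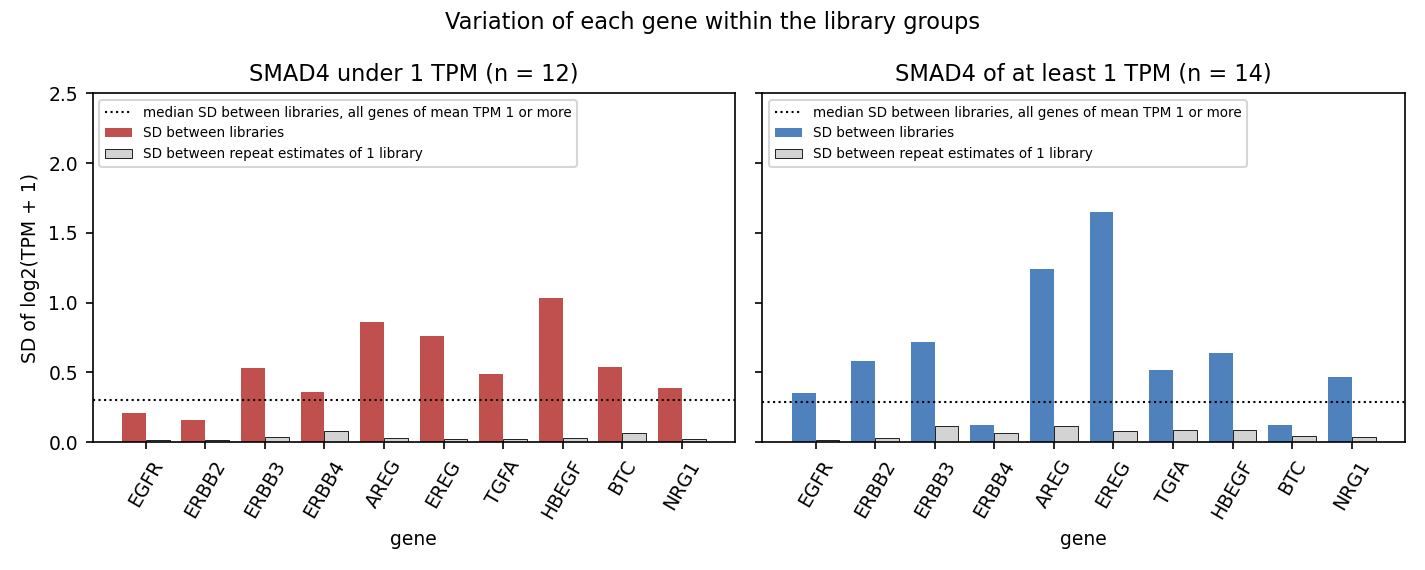
SD of log2(TPM + 1) for each member between the libraries of a SMAD4 group (coloured bars) and between repeat estimates of the same library (grey bars), with the median SD of all genes as a dotted line. HBEGF has the highest bar in the 12 libraries with SMAD4 under 1 TPM (1.03) and EREG in the other 14 (1.65), and all grey bars are at most 0.116.

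Library 18 differed from the other libraries with SMAD4 of at least 1 TPM in a particular set of members. It had the highest AREG (28.8 TPM), EREG (68.5 TPM), HBEGF (15.1 TPM) and BTC (0.32 TPM) of the 14, and also the lowest TGFA (0.195 TPM) and ERBB2 (10.6 TPM). Its TGFA value equals 9.53 estimated counts, and library 20 was nearly as low (0.258 TPM, 12.4 estimated counts). Thus TGFA was not raised with the other EGFR ligands in library 18, but it did not stand apart there either. The identity genes of library 18 were those of its group, with SMAD4 at 30.8 TPM, VIM at 4380 TPM, CDH1 at 0.402 TPM and EPCAM at 10.3 TPM.

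Members were then compared in pairs within each SMAD4 group, since the pooled libraries form separate clusters in which most pairs would correlate. A member entered where its median was at least 1 TPM, which gave 36 pairs in the 12 libraries with SMAD4 under 1 TPM (9 members) and 10 pairs in the other 14. Pearson's r and Spearman's rho of log2(TPM + 1) were tested by 100000 two-sided permutations of libraries, with Benjamini-Hochberg adjustment over the 46 pairs.

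The EGFR ligands rose and fell together across the libraries with SMAD4 under 1 TPM. Among the 10 pairs of AREG, EREG, TGFA, HBEGF and BTC, 9 passed an adjusted permutation p of 0.05, all with a positive r. The closest pair was AREG and TGFA, with r = 0.91 and rho = 0.85 (adjusted permutation p = 0.00092 and 0.0175). AREG and EREG, the ligands 56.4 kb apart on chromosome 4, had r = 0.89 and rho = 0.83 (adjusted permutation p = 0.00368 and 0.0182). EREG and BTC followed with r = 0.87, and AREG and HBEGF and TGFA and HBEGF each had r = 0.85 (adjusted permutation p = 0.00405 for each of the 3 pairs). The other called pairs were EREG and TGFA (r = 0.83), EREG and HBEGF (r = 0.82), AREG and BTC (r = 0.81) and TGFA and BTC (r = 0.72, adjusted permutation p = 0.0418). HBEGF and BTC, the remaining pair, had r = 0.64 (adjusted permutation p = 0.0995), and passed without library 7 (r = 0.78, adjusted permutation p = 0.023).

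The 9 called pairs kept an r between 0.62 and 0.86 without the 2 libraries farthest from the median of the first gene. With 10 libraries left, only AREG and TGFA (r = 0.86) still passed the adjusted threshold, and the calls of the other 8 pairs were lost. The r of these 8 pairs was also lower than with all libraries. The smaller number and the removal of extreme libraries cannot be told apart here. TGFA and BTC had r = 0.71 and EREG and BTC r = 0.81 then, while EREG and HBEGF fell to r = 0.62. When single libraries were left out, TGFA and BTC no longer passed without library 1, 2, 3, 6, 16, 21, 24 or 26 (r from 0.64 to 0.75), and EREG and HBEGF without library 3 (r = 0.74, adjusted permutation p = 0.0603). Many genes followed these ligands. An absolute r of at least 0.7 was reached by 13.8% of 11090 other genes with AREG and by 17.4% with HBEGF. By r with AREG, TGFA ranked 26, EREG 45, HBEGF 97 and BTC 186 among those genes. By r with EREG, AREG ranked 13 and BTC 34, and by r with BTC, EREG ranked 8. By r with HBEGF, the other EGFR ligands ranked from 242 to 916.

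With all 12 of these libraries, no receptor was correlated with a ligand past the threshold. The 15 pairs of EGFR, ERBB2 or ERBB3 with an EGFR ligand had r from -0.51 to 0.29. EGFR and AREG had r = -0.02 (adjusted permutation p = 0.951). NRG1 stood outside the group of EGFR ligands, with r from 0.11 to 0.39 to each of the 5. Its strongest relation was with ERBB2, which was lower where NRG1 was higher (r = -0.69, rho = -0.68, unadjusted permutation p = 0.0141, adjusted p = 0.0647), and it did not pass. Without library 5 it did (r = -0.77, adjusted permutation p = 0.0317). ERBB2 and TGFA, at r = -0.51, passed without library 7 (r = -0.73, adjusted permutation p = 0.0393). The 3 pairs of receptors had r from 0.20 to 0.45, and none passed.

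**Figure D4:**
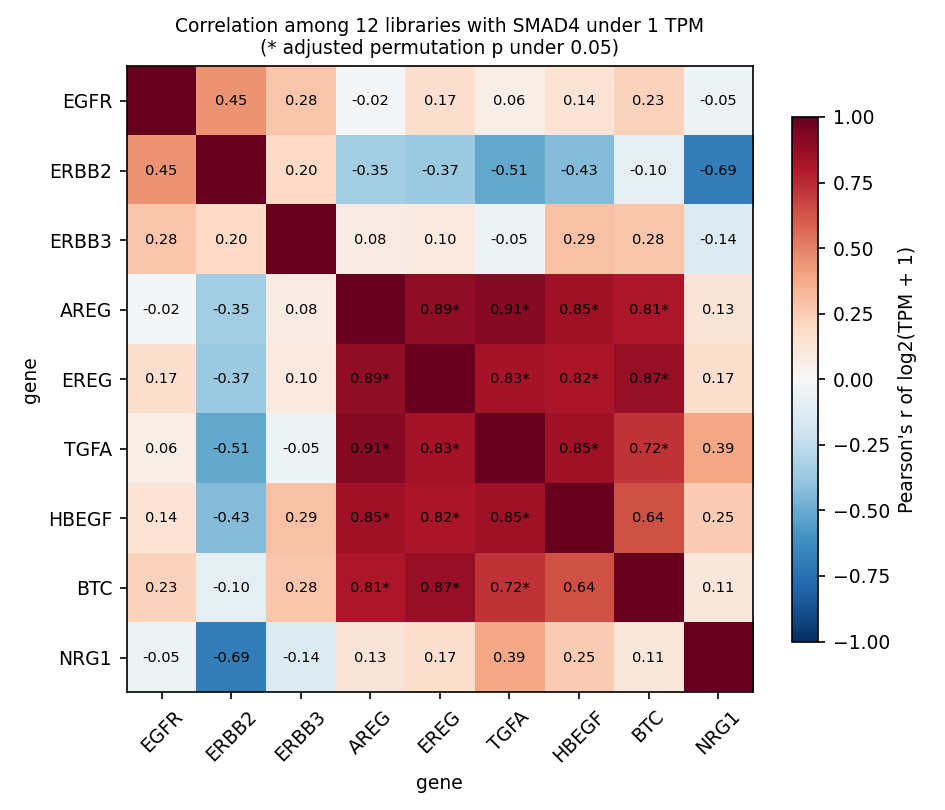
Pearson's r of log2(TPM + 1) for each pair of 9 members over the 12 libraries with SMAD4 under 1 TPM, with an asterisk at an adjusted permutation p under 0.05. The block of AREG, EREG, TGFA, HBEGF and BTC holds r from 0.64 to 0.91 and all 9 asterisks, while pairs with a receptor or NRG1 lie between -0.69 and 0.45.

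In the 14 libraries with SMAD4 of at least 1 TPM, only EGFR, ERBB2, ERBB3, HBEGF and NRG1 had a median of at least 1 TPM, and 0 of their 10 pairs passed. The largest r was that of EGFR and NRG1, at 0.60 (unadjusted permutation p = 0.0229, adjusted p = 0.0958), and it passed without library 18 (r = 0.73, adjusted permutation p = 0.0245) and without library 12 (r = 0.72, adjusted permutation p = 0.0327). With the minimum median lowered to 0.1 TPM, which lets AREG, EREG and TGFA in, 4 pairs passed. AREG and EREG had r = 0.94 (adjusted permutation p = 0.00109), and 0.78 without library 18. EREG and HBEGF had r = 0.76 (adjusted permutation p = 0.0277), and 0.44 without library 18. ERBB2 was negatively related to AREG (r = -0.68, adjusted permutation p = 0.00438) and to EREG (r = -0.66, adjusted permutation p = 0.0148), and these were -0.73 and -0.54 without library 18. TGFA, by contrast, had r = -0.48 with AREG and r = 0.61 with ERBB2, neither past the threshold. The medians of AREG, EREG and TGFA behind these values were 6.92, 29.3 and 36.4 estimated counts. Whether r differed between the SMAD4 groups was not tested.

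**Figure D5:**
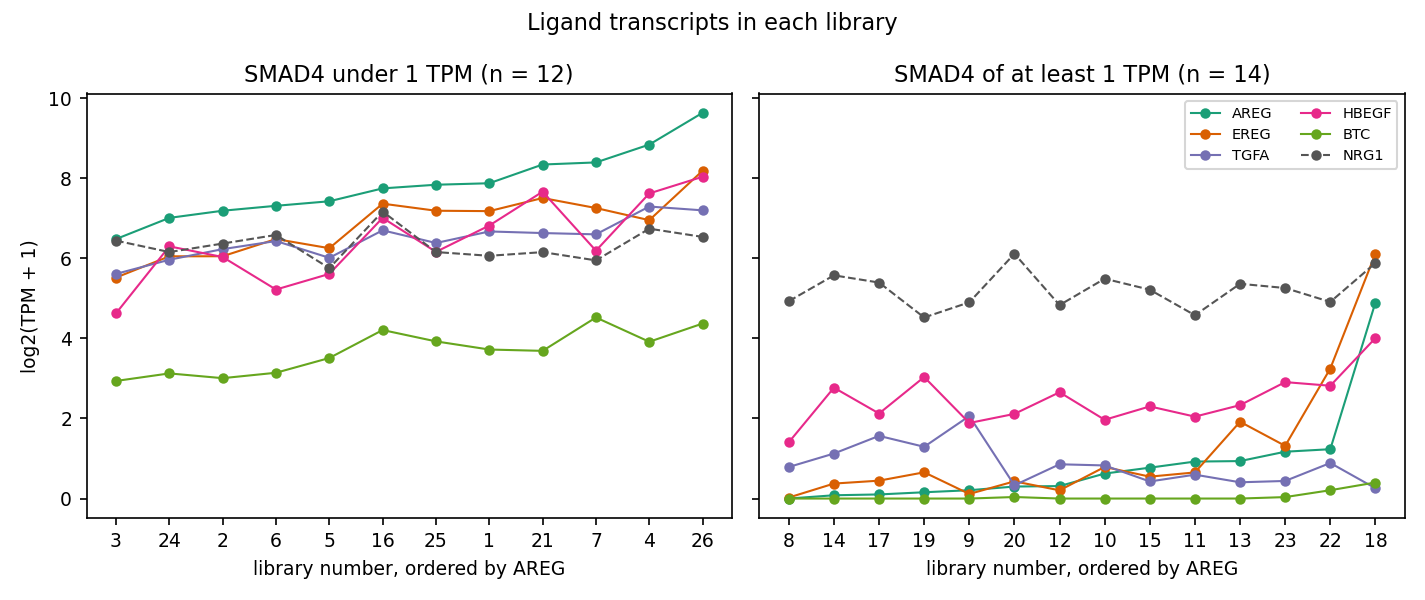
Level of the 6 ligands as log2(TPM + 1) in each library, ordered by AREG from low to high, in the 12 libraries with SMAD4 under 1 TPM (left) and the other 14 (right). On the left the EGFR ligands climb from library 3 to library 26 while NRG1 (dashed) stays between 53.0 and 143 TPM, and on the right NRG1 is highest except in library 18, where EREG exceeds it.

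For the most variable receptor and ligand of each group with a median of at least 5 TPM, the genes with the most similar pattern were listed by r, as a description over clones of both labels. With SMAD4 under 1 TPM, HBEGF was closest to PLAUR, the urokinase receptor (r = 0.98, 30.5 to 369 TPM). It was followed by SERPINI1 and the transcription factor KLF4 (r = 0.97 each) and by the interleukin 7 receptor IL7R and the death receptor TNFRSF10A (r = 0.96 each). ERBB3 was closest to PCGF3, LPCAT4, GGT7 and ESRRA (r = 0.90 each) and ZNF503 (r = 0.88). With SMAD4 of at least 1 TPM, ERBB2 was closest to the junction protein JAM3 (r = 0.86), then TINAGL1 (r = 0.83), RBP7 and FBXO6 (r = 0.82 each) and PAAF1 (r = 0.81). NRG1 was closest to TMEM18 (r = 0.91), PTCD3 (r = 0.86), the receptor kinase MERTK (r = 0.85), SEMA7A (r = 0.84) and MFSD8 (r = 0.83). These are the highest of 11091 and 10850 genes compared.

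Of the remaining ligand genes of the family, NRG2 and NRG4 reached medians above 5 TPM in a group, and NRG2, a neuregulin, was lower with SMAD4 under 1 TPM. NRG2 was 8.65 to 13.8 TPM (median 10.6) with SMAD4 of at least 1 TPM and 0.208 to 1.04 TPM (median 0.559) with SMAD4 under 1 TPM, with no overlap. NRG4, a ligand of ERBB4, had medians of 5.6 TPM with SMAD4 under 1 TPM and 0.185 TPM otherwise, and 1.8 to 21.5 TPM overlapped 0.0377 to 5.23 TPM. EPGN, an EGFR ligand gene 48.4 kb before EREG on chromosome 4, was 0.456 to 4.24 TPM against 0 to 0.0623 TPM. EGF had medians of 0.686 and 0.0291 TPM and NRG3 did not pass 0.0651 TPM.

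Of 7 genes for release of ligands from the membrane, 2 were higher without overlap with SMAD4 under 1 TPM and none was lower. Of all genes with a mean of at least 1 TPM, 14.5% were higher without overlap and 15.8% lower. ADAM10, the protease that releases BTC and EGF, had medians of 403 and 153 TPM. RHBDF1, a rhomboid-like protein that helps to bring ADAM17 to the surface, had medians of 38.8 and 17.2 TPM. RHBDF2, its relative in the same list, overlapped, with medians of 38.9 and 43.7 TPM. ADAM17, the main protease for AREG, EREG, TGFA and HBEGF, ran the other way, at 12.3 to 22 TPM (median 17.1) against 20.9 to 52.3 TPM (median 37.4), overlapping slightly.

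Among 14 negative regulators and genes of receptor turnover, 2 were higher and 4 lower without overlap with SMAD4 under 1 TPM. The other 8 overlapped. Over all genes with a mean of at least 1 TPM, these shares were 14.5% and 15.8%. ERRFI1, an inhibitor of the EGFR kinase that is induced by EGFR signaling, was 62.6 to 133 TPM against 233 to 438 TPM. CBLC, a ubiquitin ligase of epithelial cells, had medians of 40.8 and 1.39 TPM, and LRIG1, which promotes breakdown of these receptors, 5.65 and 0.332 TPM. The other genes that were lower without overlap were CBL, SOCS5 and EPS15.

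Of 16 adaptors and effectors, 2 were higher and 3 lower without overlap with SMAD4 under 1 TPM. GAB1, a docking protein, had medians of 7.31 and 0.897 TPM, and VAV2, an exchange factor, 39.5 and 10.8 TPM. PTPN11, the phosphatase SHP2, was lower, at 35.2 and 92.6 TPM, as were PIK3CB and PIK3R3. Of 7 partner receptors and surface partners, ITGB4, an integrin of hemidesmosomes, was higher without overlap, with medians of 349 and 18.3 TPM. CD44, a hyaluronan receptor, had overlapping ranges and medians of 805 and 1660 TPM, and MUC1, a mucin that interacts with EGFR, of 3.88 and 40.0 TPM. Each list held genes on both sides or mostly overlapping, beside the 30.3% of all genes that were apart in either direction.

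The comparison by label, which is the grouping the series provides, showed no member to differ. With edgeR's quasi-likelihood test over 26 libraries, 0 of 16008 genes (0.0%) passed an adjusted p of 0.05 and a log2 fold change of 1, while 367 had an unadjusted p below 0.05. DESeq2 called 2 genes, neither of them a member. All 10 members had an edgeR adjusted p of 1, with log2 fold changes (Panc1 minus BxPC3) from -0.71 for HBEGF (SE 0.846) to 1.07 for ERBB4 (SE 0.847). Each label contains libraries of both SMAD4 groups, so the spread within a label includes the differences between these groups. The label comparison within these groups, and with the group as a covariate, is given below. The part of the SMAD4 groups in the result itself was not tested.

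Within SMAD4 groups the label comparison was made again. With SMAD4 under 1 TPM (5 labelled BxPC3 and 7 labelled Panc1), 0 of 16124 genes (0.0%) passed with edgeR, while 1840 had an unadjusted p below 0.05 and DESeq2 called 11. HBEGF was lower in libraries labelled Panc1 by a log2 fold change of -0.94 (SE 0.498, edgeR adjusted p = 0.483) and ERBB4 higher by 1.47 (SE 0.71, edgeR adjusted p = 0.448), the latter group holding library 4. With SMAD4 of at least 1 TPM (7 and 7), 0 of 15161 genes (0.0%) passed, while 700 had an unadjusted p below 0.05 and DESeq2 called 1. ERBB4, AREG and BTC did not pass the filter on low counts there. EREG had the largest value, a log2 fold change of -4.20 (SE 1.36, edgeR adjusted p = 0.982). It was -1.58 (SE 0.975, edgeR adjusted p = 0.875) without library 18. With the SMAD4 group as a covariate over all 26 libraries, 0 of 16008 genes passed with edgeR. An unadjusted p below 0.05 was found for 1204 genes, against 367 without the covariate. In that fit ERBB3 (-0.76, SE 0.261), AREG (-1.77, SE 0.705), EREG (-2.61, SE 0.881) and HBEGF (-0.90, SE 0.313) were lower in libraries labelled Panc1. Each had an edgeR adjusted p of 0.615, which did not pass.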

How the data were processed

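Polyadenylated RNA of 26 SCDCLs was sequenced once each with strand-specific libraries. The authors quantified reads with kallisto 0.46.1 against an Ensembl annotation of GRCh38 and summarised them to genes with tximport. The deposited table gives TPM, which the authors scaled by transcript length and within each library, and estimated counts, which the authors remade from TPM and length and scaled to the library total. Reads of similar genes are assigned by a model, so both depend on it. The deposited table also has 30 repeat estimates per library from reads drawn again, of which 5 were used, and 676 columns of values per library were not used. Totals ranged from 27035724 to 34945608 estimated counts (median 29623513), and genes of few counts are imprecise.

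Libraries were grouped by label and by SMAD4 (1 TPM). Levels were compared as log2(TPM + 1). Estimated counts were rounded and tested with edgeR 4.0.16 (filterByExpr, TMM, quasi-likelihood test, Benjamini-Hochberg adjustment) and DESeq2 1.42.0 in R 4.3.3. Python 3.11.15, numpy 2.4.6, pandas 2.3.3 and scipy 1.17.1 were used for permutation tests of pairs. The steps were tested on simulated data. Replicates are separate clones sequenced once each. The p-values therefore rest on the spread between libraries, which joins differences between clones with those of culture and library preparation.

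The members, the SMAD4 threshold and all lists were chosen with earlier results of these data known. Named beside the members were the check genes, up to 3 genes of each list with the largest difference of medians among those of at least 5 TPM, all other ligands, and the 5 genes closest in pattern to the most variable receptor and ligand. The 4 promoter motifs, RHBDF2 and the genes named only for lying apart were chosen after values were seen. Alternatives were other pseudocounts (0.1 and 5), scalings, filters, tests, a SMAD4 threshold of 10 TPM, Spearman's rho, the median absolute deviation, and leaving out libraries.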

Additional observations from a re-analysis of the deposited data

Results flagged for a closer look

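Within libraries of the same label and SMAD4 group, 39 sets of member values were searched for a library standing apart. Dixon's criterion was applied to log2(TPM + 1), and 5 were found, where chance gives about 1 in 20. EREG in library 18 (68.5 TPM) was not among the 5 on this scale. The values below are in TPM. ERBB3 was lowest in library 6, at 9.14 TPM against 19.9 to 32.3 TPM in the other libraries labelled Panc1 with SMAD4 under 1 TPM. ERBB4 was highest in library 4 of the same set, at 1.72 TPM against 0.0514 to 0.332 TPM. Among the libraries labelled BxPC3 with SMAD4 of at least 1 TPM, ERBB4 was highest in library 15, at 0.381 TPM against 0.0308 TPM at most, and AREG in library 18, at 28.8 TPM against 0.0736 to 1.35 TPM. EREG was highest in library 13, at 2.78 TPM against 0.0177 to 0.728 TPM in the other libraries labelled Panc1 with SMAD4 of at least 1 TPM.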

How the results depend on the processing

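With DESeq2 instead of edgeR, 2 genes differed between labels over 26 libraries, 11 with SMAD4 under 1 TPM and 1 with SMAD4 of at least 1 TPM, none of them a member. The cause was not tested. In the 12 libraries with SMAD4 under 1 TPM, 1 pair passed without the 2 farthest libraries, with fewer libraries left, and 7 to 11 pairs passed when each library was left out in turn. In the other 14, 4 pairs passed with a minimum median of 0.1 TPM, which tests more pairs, and 0 to 1 when each library was left out, the pair being EGFR and NRG1 without library 12 or 18. No difference between the SMAD4 groups changed sign under an alternative run. No pair called with SMAD4 under 1 TPM changed sign when libraries were left out. Some values that did not pass changed sign. ERBB4 between labels was 1.07 over 26 libraries and -0.10 with the SMAD4 group as a covariate. Of 40 alternative values of the differences between SMAD4 groups, 29 moved by less than the spread between libraries and 11 by more, mostly with pseudocounts of 0.1 or 5, from which the differences of AREG were 8.62 and 5.23. Of 340 alternative SDs, 28 were marked as moved. Such a shift could be smaller than the spread between libraries. EGFR with SMAD4 under 1 TPM, for instance, had an SD of 0.21, and 0.17 with another scaling. EREG between labels with SMAD4 of at least 1 TPM was -1.58 instead of -4.20 without library 18, an alternative chosen after seeing the data. No paired analysis was possible because the labelled groups share no replicate numbers. Depth limits ERBB4 in all libraries and BTC, AREG, EREG and TGFA where SMAD4 was at least 1 TPM.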
